A study of Arabidopsis thaliana with 6 samples.

Results

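The auxin response genes described here were GH3.1 (AT2G14960), GH3.3 (AT2G23170), WES1 (AT4G27260), IAA29 (AT4G32280), IAA30 (AT3G62100) and HAT2 (AT5G47370). They were found as the probe sets whose single gene in the platform's probe table was one of these loci, which gave 1 probe set for each of the 6 genes, among 16411 loci with such a probe set in the whole table. Transcript levels came from 6 arrays of wild-type Arabidopsis thaliana cotyledons, cut from 6-day-old seedlings and cultured in VISUAL, a system that turns leaf cells into vascular cells. Every induction medium held the synthetic auxin 2,4-D (1.25 mg/L), the cytokinin kinetin (0.25 mg/L) and bikinin (10 µM), which blocks GSK3-like kinases and so turns on the brassinosteroid pathway. The groups were 5% glucose at 0, 24 and 48 h and 5% sucrose at 0, 24 and 48 h, with 1 array in each. Groups were thus not replicated, and precision is limited by how few arrays there were. There was no culture without 2,4-D, so time in culture and time on auxin cannot be told apart. Times are those of the sample titles, and a second time label gave another value on 5 of the 6 arrays.

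Auxin is perceived in the nucleus by TIR1/AFB F-box receptors, which bind it together with Aux/IAA proteins and send these for degradation. Aux/IAA proteins repress the auxin response factors, so their loss frees these factors to switch on early auxin genes. Those targets include Aux/IAA genes themselves and GH3 genes, whose enzymes join auxin to amino acids and so lower the active hormone, and both close a negative feedback loop. HAT2 encodes a class II homeodomain-leucine zipper (HD-ZIP) transcription factor, known as an early auxin-induced gene whose protein acts as a repressor.

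All levels are log2 signals per probe set after each array was scaled to a common trimmed mean. Signals under a floor of 4.90, the 40th percentile of all arrays pooled, have no order and are given as at the floor. The labelled tissue was checked by 6 measurable mesophyll genes of a list of 10, which lay between 9.62 and 11.87 on the 0 h arrays. Their summed linear signal was 12018 to 13085 at 0 h, 358.1 to 1009 at 24 h and 345.5 to 756.0 at 48 h. The root list had 1 measurable gene of 5, EXP7, which was at the floor on 4 arrays and read 5.26 and 5.05 on the other 2. Summed linear signals of the xylem vessel genes (3 measurable of 9) were 734.4 to 757.6 at 0 h, 442.4 to 711.3 at 24 h and 740.5 to 3327 at 48 h, with GUT2 higher at 48 h and the other 2 not past the threshold. The phloem list (3 measurable of 6) was mixed: SWEET11 fell from 10.57 and 11.13 at 0 h to the floor at 48 h, while OPS and CLE45 were at the floor at 0 h and higher at 48 h. In whole cotyledons, fewer cells of a type and less RNA per cell cannot be told apart. The 23 background controls, probe sets that match no plant sequence, fell by a median of 1.21 on the log2 scale from 0 to 24 h and by 1.01 from 0 to 48 h. Their medians were 6.07, 4.64 and 5.15 at 0, 24 and 48 h in glucose and 5.51, 4.51 and 4.42 in sucrose, so at 0 h they lay above the floor. A fold against a signal not above its array's control median is therefore given as a bound, with that signal set to the median, or to the floor where that is higher. This bound was added after the values were seen. Where both 0 h signals of a gene were set to these medians, their spread in the tests was that between the controls, not that of the gene. Beyond these bounds, the part of these shifts in the results below was not tested.

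**Figure D1:**
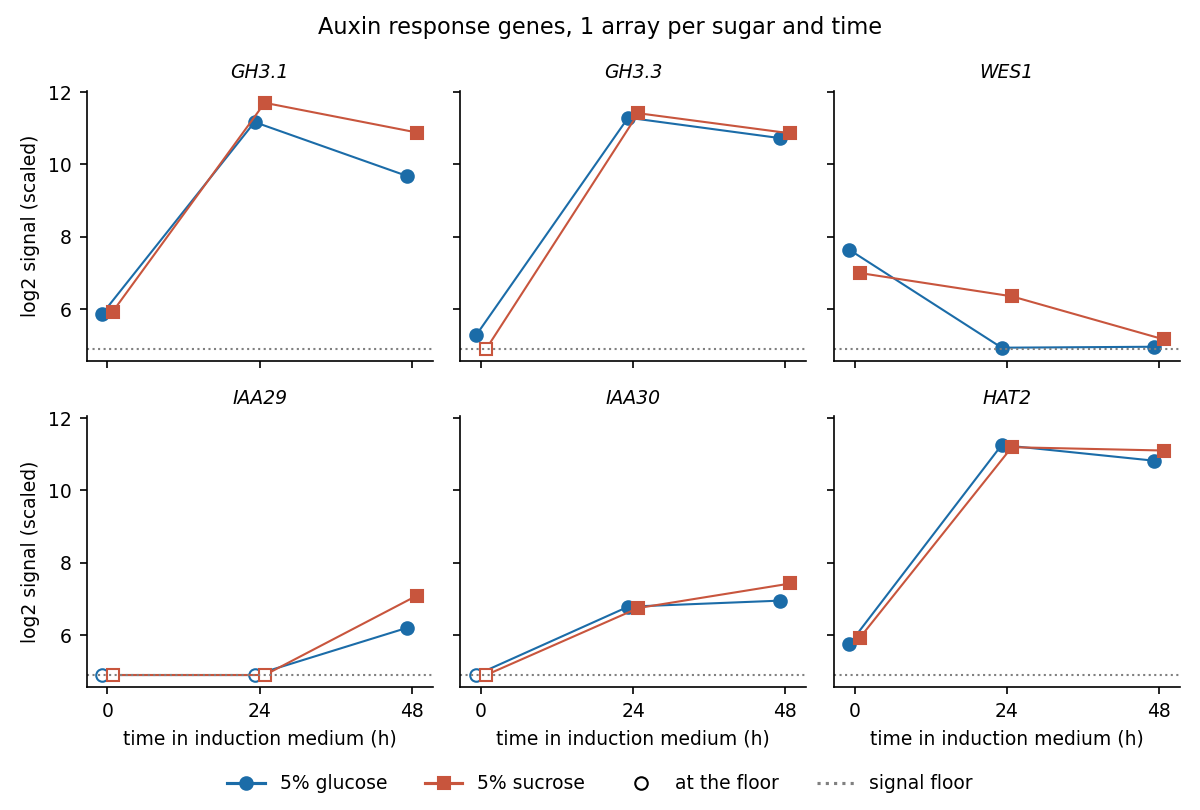
Log2 signal (vertical axis) against hours in induction medium (horizontal axis) for the 6 genes, 1 point per array, glucose in circles and sucrose in squares, with open symbols at the signal floor. GH3.1, GH3.3 and HAT2 climbed from under 6 to over 11 by 24 h, IAA30 left the floor by 24 h and IAA29 by 48 h, and WES1 declined.

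The 3 GH3 genes went in opposite directions in culture: GH3.1 and GH3.3 rose steeply and WES1 fell. GH3.1 and GH3.3 encode enzymes that conjugate the auxin indole-3-acetic acid (IAA) to amino acids. GH3.1 read 5.88 in glucose and 5.92 in sucrose at 0 h, 11.17 and 11.71 at 24 h, and 9.69 and 10.88 at 48 h. On the linear scale, its glucose signal went from 58.8 to 2309 and then to 823.2. Both 0 h arrays were low, both 24 h arrays were high, and the times did not overlap. The 0 h signal in glucose was not above the background control median of that array. GH3.3 read 5.27 in glucose and was at the floor in sucrose at 0 h, reached 11.29 and 11.42 at 24 h, and stood at 10.73 and 10.86 at 48 h. All 4 cultured arrays lay far above both 0 h arrays, and the sugars were close together in culture. Neither 0 h signal was above its array's control median.

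WES1, also called GH3.5, encodes a GH3 enzyme known to act on salicylic acid as well as IAA. It read 7.64 in glucose and 7.0 in sucrose at 0 h, 4.94 and 6.36 at 24 h, and 4.96 and 5.16 at 48 h. Both 0 h arrays were higher than all 4 cultured arrays. The glucose values in culture were just above the floor of 4.90, and that at 48 h was not above its control median of 5.15, while the sucrose 24 h array, at 6.36, stood between the 0 h and 48 h levels. The background controls moved the same way as WES1, with a median difference from 0 to 24 h of -1.43 in glucose and -0.998 in sucrose, against -2.70 and -0.65 for WES1. They went against the direction of GH3.1 and GH3.3.

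The 2 Aux/IAA genes had different timing: IAA30 was above the floor by 24 h and IAA29 only at 48 h. IAA30 belongs to the small group of Aux/IAA proteins that lack the degron through which the receptors bind. At 0 h it did not exceed the floor in either sugar, and it then read 6.79 in glucose and 6.75 in sucrose at 24 h and 6.95 and 7.43 at 48 h. The 4 cultured arrays were all higher than the 0 h arrays. Of 25826 tested probe sets, 792 (3.07%) had this pattern of signal above the floor on all 4 cultured arrays and neither 0 h array. IAA29, an Aux/IAA gene known to respond to auxin and to shade, was at the floor on the 0 h and 24 h arrays of both sugars. At 48 h it read 6.20 in glucose and 7.09 in sucrose. This late pattern was shared by 141 (0.546%) of the tested probe sets.

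HAT2 had a steep early rise that held to 48 h. It read 5.76 in glucose and 5.92 in sucrose at 0 h, 11.26 and 11.20 after 24 h, then 10.82 and 11.10 after 48 h. The 2 arrays of each time differed by 0.06 to 0.28, and all cultured arrays stood far above both 0 h arrays. On the linear scale, signals of 54.0 and 60.5 at 0 h became 2445 and 2345 at 24 h, and the 0 h signal in glucose was not above the background control median.

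The change after 24 h was tested in limma across all 25826 probe sets, with the arrays of both sugars at a time against those at 0 h. In that model 24.2% of the tested probe sets were higher and 19.8% were lower at 24 h, 44% in all (Benjamini-Hochberg adjusted p under 0.05, two-sided). Of the 6 genes, 4 rose, 1 fell and IAA29 had no signal above the floor at either time. The directions and calls were known when the genes were chosen, so these counts describe them and do not support the choice. GH3.3 rose by 6.27 ± 0.21 (SE, 2 arrays against 2; adjusted p = 0.0018), a value held down by the floor on the sucrose 0 h array. GH3.1 rose by 5.54 ± 0.23 and HAT2 by 5.39 ± 0.19 (adjusted p = 0.0018 for each). Against the background control medians, GH3.3 was at least 47.4-fold higher, GH3.1 at least 43.5-fold and HAT2 at least 37.6-fold, with the same adjusted p of 0.0018 in limma. On the floored scale, 2 of the tested probe sets had a higher difference than GH3.3, 8 were above GH3.1 and 11 above HAT2.

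IAA30 passed against the floor at 24 h (1.87 ± 0.29, adjusted p = 0.0076). Its 0 h pair, both at the floor, added no spread to that SE. Against the background control medians the difference of at least 1.97-fold missed the threshold (adjusted p = 0.070). The 0 h values there were the control medians (6.07 and 5.51), so their spread was that of the controls, not of IAA30. WES1 fell by 1.67 ± 0.41, which is 3.19-fold (adjusted p = 0.026). The median difference of the 6 genes was 3.63, with IAA29 at 0, against 0.10 over all tested probe sets. With either 24 h array removed, 0 of all tested probe sets passed, so those fits do not test the calls of single genes. Removing the glucose array gave differences of 5.20 for GH3.1, 6.27 for GH3.3, 1.62 for IAA30, 5.22 for HAT2 and -1.07 for WES1. Removing the sucrose array gave 5.87, 6.28, 2.13, 5.56 and -2.28 in the same order. WES1 also missed the threshold with the glucose 0 h array removed (-1.36), and with either 48 h array removed (-1.67 in each case).

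**Figure D2:**
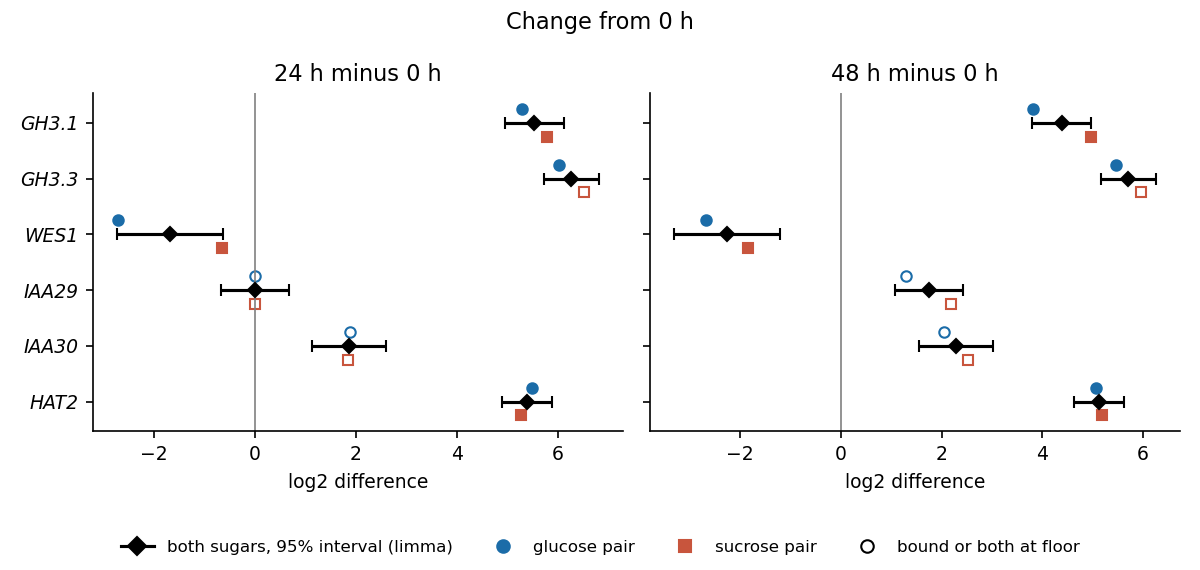
Log2 difference from 0 h (horizontal axis) for each gene at 24 and 48 h. Diamonds are the mean over both sugars with its 95% interval from limma, circles the glucose pair and squares the sucrose pair of arrays, open where an array of the pair was at the floor. The intervals of GH3.1, GH3.3 and HAT2 lie far to the right of 0, and those of WES1 to the left.

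Within each sugar, a difference between 2 single arrays has no error of its own, and the 24 h directions were the same in both. GH3.1 was at least 34.4-fold higher in glucose and 55.0-fold in sucrose. GH3.3 was at least 37.4-fold higher in glucose and at least 60.0-fold in sucrose. HAT2 was at least 36.4-fold higher in glucose and 38.8-fold in sucrose. The bounds do not show whether these sizes differed between the sugars. WES1 was 6.52-fold lower in glucose and 1.56-fold lower in sucrose.

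At 48 h, all 6 genes differed from 0 h with the floor as base: 5 rose and WES1 fell. In the same model, 22.1% of tested probe sets were higher and 19.9% lower, 42% in all. GH3.3 rose by 5.71 ± 0.21, HAT2 by 5.13 ± 0.19 and GH3.1 by 4.38 ± 0.23 (SE, 2 arrays against 2; adjusted p = 9.7e-04 for each in limma). The GH3.3 value is again held down by the floor on the sucrose 0 h array. Against the background control medians, GH3.3 was at least 32.1-fold, HAT2 at least 31.3-fold and GH3.1 at least 19.5-fold higher. IAA30 rose by 2.29 ± 0.29 over the floor (adjusted p = 0.0042) and was at least 2.64-fold above the control medians (adjusted p = 0.027). IAA29 passed against the floor (1.75 ± 0.27, adjusted p = 0.0069), but not against the control medians, where it was at least 1.81-fold higher (adjusted p = 0.098). For IAA29 and IAA30 both 0 h arrays were at the floor, so that pair added no spread to the SE. Against the control medians, the spread of that pair was that of the controls and not of either gene. Without a floor, IAA29 rose by 1.96 ± 0.44 (adjusted p = 0.013 in limma). That fit counts its 0 h signals, which lay under both the floor and the control medians. WES1 fell by 2.26 ± 0.41 (adjusted p = 0.011). The median difference of the 6 genes was 3.34, against 0.13 over all tested probe sets. The order by difference had changed, with HAT2 above GH3.1, and 12 tested probe sets were above GH3.3, 35 above HAT2 and 150 above GH3.1. Both comparisons share the 0 h arrays.

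By sugar, GH3.1 was at least 12.3-fold higher than at 0 h in glucose and 31.1-fold in sucrose. HAT2 was at least 27.0-fold higher in glucose and 36.4-fold in sucrose. IAA29 was at least 1.09-fold higher in glucose and at least 2.99-fold in sucrose, and IAA30 at least 1.85-fold and at least 3.78-fold. WES1 was at least 5.63-fold lower in glucose and 3.58-fold lower in sucrose. With either 48 h array removed, 0 of all tested probe sets passed at 48 h, so those fits do not test the calls of single genes. Removing the glucose array gave differences of 4.72 for GH3.1, 5.71 for GH3.3, 2.55 for IAA30, 5.30 for HAT2 and -2.87 for WES1. Removing the sucrose array gave 4.05, 5.71, 2.04, 4.96 and -1.65 in the same order. IAA29, then above the floor on 1 array, was not tested. WES1 also missed the 48 h threshold with either 24 h array removed (-2.26 in each case).

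**Figure D3:**
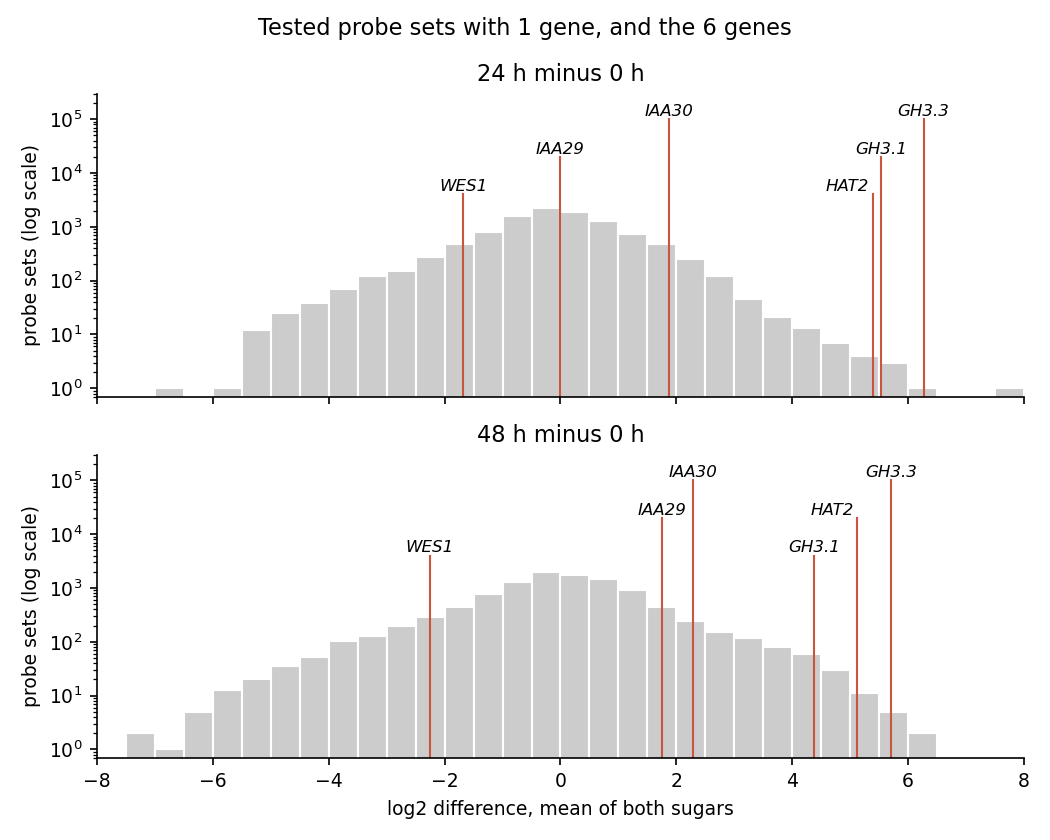
Number of tested probe sets with 1 gene (vertical axis, log scale) by log2 difference from 0 h, mean of both sugars (horizontal axis, bins of 0.5), with lines at the 6 genes. GH3.1, GH3.3 and HAT2 lie in the sparse right tail at both times, while IAA30 (1.87 at 24 h) and WES1 (-1.67) lie on the shoulders.

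Between 24 and 48 h none of the 6 genes passed the threshold, and 0 of all tested probe sets did (0% in each direction; 4872 had an unadjusted p under 0.05 in limma). GH3.1 differed by -1.15 ± 0.23 (SE, 2 arrays against 2; adjusted p = 0.116). It was 2.80-fold lower at 48 h than at 24 h in glucose and 1.77-fold lower in sucrose, so both pairs of arrays had the same direction. GH3.3 differed by -0.56 ± 0.21, with -0.57 in glucose and -0.56 in sucrose (adjusted p = 0.255). HAT2 differed by -0.26 ± 0.19, with -0.43 and -0.09 (adjusted p = 0.503).

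IAA29 had the largest difference of the 6 in this interval, at least 2.47-fold higher in glucose and at least 4.58-fold in sucrose (adjusted p = 0.093). It passed without the sucrose 0 h array (adjusted p = 0.046). IAA30 differed by 0.42 ± 0.29 (adjusted p = 0.474), with 0.68 in sucrose and 0.17 in glucose, and the glucose value was -0.0026 with the signals as deposited. WES1 differed by -0.58 ± 0.41 (adjusted p = 0.483). Its sucrose signal differed by -1.19, and its glucose signal, not above the control median at 48 h, by 0.03, or by -0.14 as deposited.

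Sucrose and glucose were compared next, since the study asked how the kind of sugar affects vascular differentiation. At 48 h each of the 6 genes read higher in sucrose than in glucose, and the same 6 did so with deposited and with quantile-normalized signals. With quantile normalization, however, the difference was only 0.013 for WES1 and 0.07 for GH3.3. Of all tested probe sets, 51.4% were higher in sucrose at 48 h and 41.2% lower, while among those with 1 gene 42.2% were higher and 49.2% lower. The WES1 signal in glucose was not above the control median there. The largest of these differences were those of GH3.1 (1.20) and IAA29 (0.89), followed by IAA30 (0.47), HAT2 (0.28), WES1 (0.20) and GH3.3 (0.13). The background controls differed the other way, by a median of -0.73. None of the 6 passed the limma test at 48 h, where 0 of all tested probe sets passed (0%; 4472 at an unadjusted p under 0.05), and the spread there came from the 0 h pair alone.

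For GH3.1 the 95% interval of the 48 h sugar difference was 0.72 to 1.68 (1 array against 1; adjusted p = 0.169 in limma). Widths of intervals in this model came from the 0 h pair alone, so they do not show the spread of GH3.1 in culture. A higher sucrose minus glucose difference at 48 h was found for 1182 of the 25826 tested probe sets, and for 152 of the 10662 with 1 gene. Its 24 h difference was 0.53 (interval 0.05 to 1.01; adjusted p = 0.414), and at 0 h the 2 arrays differed by 0.05. For HAT2 the interval at 48 h was -0.47 to 1.03 and for GH3.3 it was -1.35 to 1.62, which leaves room for differences in either direction. Intervals of IAA29 and IAA30 in this model are not given, because both 0 h arrays were at the floor and gave a spread of 0.

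At 24 h the sugars differed most for WES1, which was 1.42 higher in sucrose (interval -1.02 to 3.86; adjusted p = 0.576 in limma). A higher difference was found for 351 of all tested probe sets and for 177 of those with 1 gene. At 0 h, however, WES1 was 0.64 lower in sucrose than in glucose. The sugar difference at 24 h was -0.06 for HAT2, -0.04 for IAA30 and 0.12 for GH3.3, and 0 of all tested probe sets passed at that time (0%; 2955 at an unadjusted p under 0.05). Averaged over 24 and 48 h, the sucrose minus glucose difference was 0.87 ± 0.23 for GH3.1 (adjusted p = 0.395) and 0.81 ± 0.41 for WES1 (adjusted p = 0.559), and no probe set passed (0%; 2613 at an unadjusted p under 0.05).

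Whether the sugar difference itself changed from 24 to 48 h was tested in the same limma model. The change was 0.67 for GH3.1 (adjusted p = 0.374), -1.22 for WES1 (adjusted p = 0.629), 0.34 for HAT2 (adjusted p = 0.659) and 0.01 for GH3.3 (adjusted p = 1). For IAA30 it was 0.51, given without a p as its 0 h pair had no spread, and for IAA29 no change can be given, since both 24 h arrays were at the floor. None of the 25826 tested probe sets passed (0%; 3473 at an unadjusted p under 0.05).

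**Figure D4:**
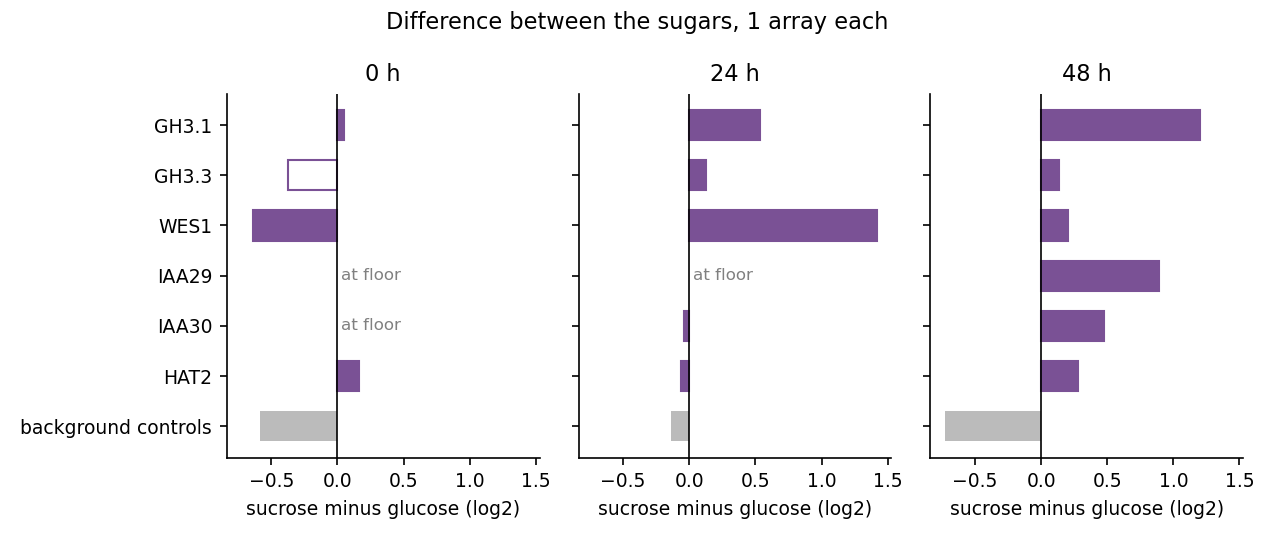
Sucrose minus glucose log2 difference (horizontal axis) at 0, 24 and 48 h for the 6 genes and, in grey, the median of the background controls, each between 1 array and 1 array, with an open bar for a bound. All 6 genes lie to the right of 0 at 48 h and the background controls to the left (-0.73).

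Other auxin genes were few on the named part of the table. Lists of auxin genes held 236 loci, of which 26 had a probe set with 1 gene and 13 were tested, these 6 included. None of the 23 auxin response factors, 12 receptors and corepressors, 25 transport genes and 80 SAUR growth genes had such a probe set. Of the 7 tested genes outside the 6, 2 were higher and 2 lower at 24 h and again at 48 h with the floor as base, with median differences of -0.01 and -0.06.

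Among synthesis and inactivation genes, YUC6, a flavin monooxygenase gene of the last step of auxin synthesis, did not exceed the floor at 0 h and read 6.45 in glucose and 6.56 in sucrose at 24 h and 6.10 and 7.16 at 48 h. It passed against the floor (adjusted p = 0.014 at 24 h and 0.012 at 48 h in limma), but against the background control medians the differences of at least 1.64-fold and at least 1.79-fold missed the threshold (adjusted p = 0.178 and 0.134). AT1G14130, at the floor at 0 h, had signals of 6.01 and 5.78 after 24 h and of 6.40 and 6.31 after 48 h. It too passed against the floor (adjusted p = 0.017 and 0.0062 in limma) and not against the control medians, at least 1.08-fold and at least 1.48-fold higher (adjusted p = 0.794 and 0.187). Both were thus above the floor only on cultured arrays, as IAA30 was, and their 0 h pairs likewise added no spread to the tests against the floor. In the tests against the control medians, their 0 h spread was that of the controls. UGT74D1, a glucosyltransferase gene known to act on auxin, fell from 8.45 and 8.34 at 0 h to 5.99 and 6.96 at 24 h (-1.92 ± 0.33, adjusted p = 0.010). Its second probe set gave -0.72 ± 0.30 at 24 h (adjusted p = 0.111), and at 48 h both passed, with -1.66 ± 0.33 and -1.37 ± 0.30 (adjusted p = 0.014 and 0.020). AT1G14120 was above the floor on the sucrose arrays alone in culture (5.20 and 5.22) and did not pass.

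Among the other Aux/IAA genes, IAA34 read 5.42 and 5.31 at 0 h and was at the floor in culture (adjusted p = 0.044 at 24 h and 0.045 at 48 h in limma). Neither 0 h signal was above its array's control median, and the controls' own decline was larger, so no fold is given. IAA18 lay between 7.97 and 8.73 on all 6 arrays and differed by -0.01 ± 0.23 and -0.07 ± 0.23. IAA15, IAA20, IAA31 and IAA33 were at the floor on every array. Of the remaining GH3 genes with a probe set, GH3.4 and GH3.17 were at the floor throughout and GH3.9 was above it on the glucose 0 h array alone (5.17). AT5G66940, in the list of other induced regulators, read 5.51 to 6.60 and differed by -0.71 ± 0.35 at 24 h (adjusted p = 0.152) and -0.06 ± 0.35 at 48 h, while LBD16 and LBD29 were at the floor.

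**Figure D5:**
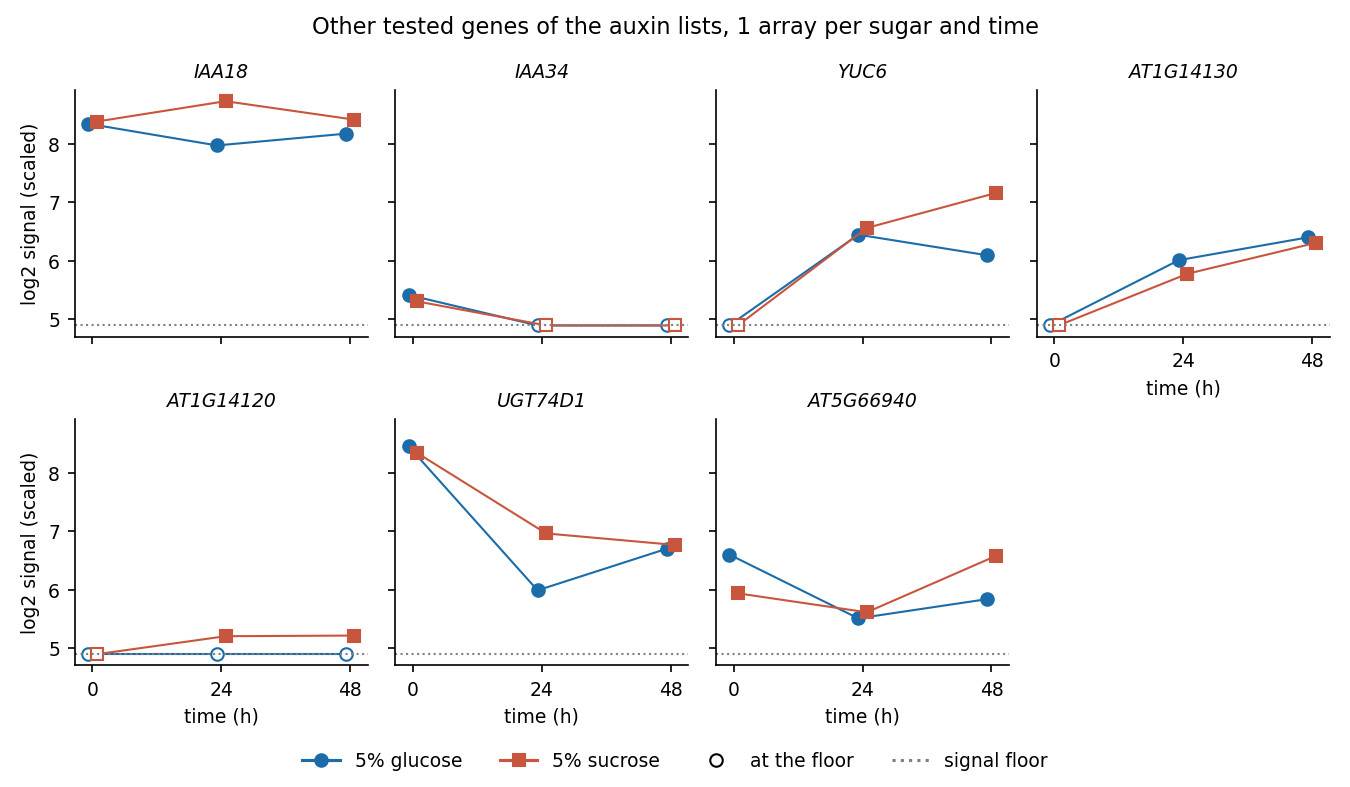
Log2 signal (vertical axis) against hours in culture (horizontal axis) for the 7 other tested auxin list genes, 1 point per array, glucose in circles and sucrose in squares, open at the floor. YUC6 and AT1G14130 left the floor in culture, UGT74D1 declined from over 8, and IAA18 stayed between 7.97 and 8.73.

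Likeness of pattern was measured on floored signals, as the root mean square difference over the 6 arrays. Each probe set's own mean was removed first, and smaller values are more alike. Among the 6, HAT2 and GH3.3 were most alike (0.40), then HAT2 and GH3.1 (0.50) and both GH3 genes (0.65), while IAA29 and IAA30 differed by 0.79. WES1 was 1.72 or more from each of the others. Among other genes, AT5G22930 was the nearest to HAT2 (0.25), to GH3.1 (0.47) and to GH3.3 (0.54): it was at the floor at 0 h and read 9.38 to 10.48 in culture. AT1G70470 (0.33) and AT4G18630 (0.46) were next for HAT2, AT4G03292 (0.47) and the endoplasmic reticulum body gene NAI2 (0.54) for GH3.1, and AT4G12490 (0.58) and AT4G23680 (0.65) for GH3.3. So GH3.3 was closer in pattern to HAT2 than to any gene outside the 6, while HAT2 and GH3.1 were each closer to AT5G22930 than to any of the 6.

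The other 3 genes had smaller values to their neighbours, but for IAA30 and IAA29 these depend on the floor. The 24 h rise of IAA30 was 1.87 with the floor and 4.63 without it. IAA29 and its neighbour AT2G23530 were at the floor on the same 0 h and 24 h arrays, where signals are set equal. IAA30 was nearest to AT2G23700 (0.10), AT2G28310 (0.12) and ATSMC2, a condensin subunit gene (0.13). AT2G23700 was above the floor on all 6 arrays, with 5.55 to 5.74 at 0 h and 7.59 to 8.41 in culture. IAA29 was nearest to AT1G59780 (0.16), AT2G23530 (0.20) and AT4G09060 (0.21), and the first of these read 5.95 in glucose and 7.39 in sucrose at 48 h. WES1 was nearest to AT5G38210 (0.17), AT1G30700 (0.20) and AT5G35970 (0.21). AT5G38210, above the floor on all 6 arrays, read 9.72 and 9.36 at 0 h. It read 7.54 in glucose and 8.57 in sucrose at 24 h, and 7.32 and 7.62 at 48 h. As it was picked for its likeness to WES1, its pattern gives no separate support for that of WES1.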

How the data were processed

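The deposited values are log2 signals for each probe set on 6 arrays of amplified, biotin-labelled RNA, from GCOS per the submitters' processing notes. The sources used here give no background correction, normalization or log base, and the base was inferred from the largest value (14.23, or 19217 on a linear scale). The table held 38408 probe sets, of which 98 controls were left out of the tests, and 16722 had 1 gene in the platform's table. Symbols came from the RefSeq gene table of TAIR10.1, where 16574 matched. Member sequences were not analysed here, and no coordinates were used.

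Trimmed means (2% at each end, linear scale) of 166.6 to 207.4 differed by over 5%, so arrays were scaled to their mean. Signals were floored at the 40th percentile, and the 25826 probe sets above the floor on at least 2 arrays were tested in limma 3.58.1 (R 4.3.3; eBayes with an intensity trend). The main model had 1 mean per time and 1 sugar term for cultured arrays, with 2 residual and 3.24 prior degrees of freedom. The sugars at each time were tested in a second model, with a mean for each of the 4 cultured arrays and only the 0 h pair giving spread (1 residual degree of freedom). The fitting code was tested on simulated data. Whether separate cultures were used for the arrays is not in the labels, so the p-values rest on the spread among these arrays only, and that may be technical.

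The 6 genes, the lists and the models were chosen with earlier results of these data known. Named genes were the 6, tested auxin list genes past the threshold, and the 3 nearest patterns of each of the 6; list genes not past it were added after their values were seen. For a gene with several probe sets, that of highest mean signal was used. Alternatives were other scalings, floors, filters, priors and models, leaving out each array, and dim signals set to the background control median.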

Additional observations from a re-analysis of the deposited data

How the results depend on the processing

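There were 9 other settings of scaling, floor, filter, prior, probe sets and model (8 for the mean sugar difference, 7 for each time's). The setting without a filter also had no floor, and that with 1-gene probe sets only was also unscaled. Under these settings the number of the 6 genes past the threshold stayed at 5 at 24 h and 6 at 48 h. It stayed at 0 between 24 and 48 h and between the sugars. Leaving out 1 array at a time gave 0 to 5 genes at 24 h, 0 to 6 at 48 h and 0 to 1 between 24 and 48 h. The 0 at 24 h came without either 24 h array, where 0 of all probe sets passed, and likewise at 48 h. These settings leave 1 array at that time, which is assumed to vary like the others, and otherwise the cause was not tested. With dim signals at the background control medians, chosen after seeing the data, 4 genes passed at 24 h and 5 at 48 h, as IAA30 did not at 24 h (0.98, adjusted p = 0.070) nor IAA29 at 48 h (0.86, adjusted p = 0.098). Of 233 single-gene values under all these settings, 230 kept their call without reversing and 2 lost the call. The sucrose minus glucose difference of GH3.3 reversed to -0.0398 with a sugar term over all 6 arrays. The 24 h difference of IAA29 was 0 in the main fit, so it was never counted as reversed. It ranged from -0.33 to 0 under these settings and from -0.447 to 0.447 with an array left out. Leaving out an array reversed 6 of 136, with sucrose minus glucose from -0.0604 to 0.280 for HAT2 and from -0.0361 to 0.474 for IAA30 (negative without either 48 h array), and 48 h against 24 h from -1.19 to 0.0258 for WES1 (positive without either the sucrose 24 h or 48 h array). It ended 25 calls and added 1. Without a floor the 24 h difference of IAA30 was 4.63 and its 48 h difference 5.06, since signals under the floor then count.

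The deposited signals, unscaled, gave 8019 higher and 3881 lower probe sets at 24 h, against 6248 and 5120 after scaling, and 6718 and 4361 against 5715 and 5137 at 48 h, while the median difference of all tested probe sets at 24 h moved from 0.10 to 0.36. With only probe sets with 1 gene, in a run that was also unscaled, 4579 passed at 24 h and 5121 at 48 h. In the scaled main fit, 4310 and 4624 of the 10662 tested probe sets with 1 gene passed. Between 24 and 48 h, 0 probe sets passed, against 299 without a floor, 169 with neither floor nor filter, and 42 with unscaled 1-gene probe sets only. Between the sugars 0 passed, against 4 without a floor, both with the filter and without it. The labels give no replicate numbers, so arrays could be paired only by sugar. With sugar as a block, the term over all 6 arrays, the counts were still 5 at 24 h and 6 at 48 h. Low signal limits GH3.3, IAA29, IAA30 and YUC6, with 0 h levels not above background in either sugar, and WES1, GH3.1 and HAT2 on 1 array each, and depth in reads has no counterpart on arrays.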
